A study of Rattus norvegicus with 12 samples.

Results

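The genes described here were 35 genes of cholesterol and fatty acid synthesis, chosen by name as the enzymes of both pathways with their main regulators. They were chosen with earlier results of these data known, so counts of members called describe the genes and are not independent support. They made up 22 sterol members and 13 fatty acid members of the 30562 genes in the deposited table. All 35 passed the filter on low counts, which left 15712 genes for testing. RNA came from the sciatic nerve stumps of rats, in 4 groups of 3 samples. Control stumps were labelled as control only. The CC4:2 and CC4:4 stumps had a conduit shaped as a truncated cone, in forms labelled 4:2 and 4:4. The VP4:2 stumps had the 4:2 form loaded with verteporfin, a compound known to block the partnership of the mechanosensitive coactivator YAP with TEAD factors. Strain, age, sex, time after surgery, the meaning of 4:2 and 4:4, what the control stumps received and whether a group's 3 stumps were from different animals were not given in the labels. All p-values thus reflect only how far these samples vary, and some of that variation may be technical.

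Cholesterol is built from acetyl-CoA through mevalonate and farnesyl diphosphate, and fatty acids are built from malonyl-CoA and then elongated and desaturated. Both pathways are switched on by the SREBP factors (genes Srebf1 and Srebf2), which SCAP carries to the Golgi for cleavage when sterols are low and which INSIG proteins hold back when sterols are high. Myelin is a membrane very rich in cholesterol and long-chain lipids, and Schwann cells make much of it themselves. Fat cells, which lie in the sheath around peripheral nerves, also run fatty acid synthesis.

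Promoter sequences are shown because the members moved in large part together, and because SREBP factors are known to work with the CCAAT-binding factor NF-Y. RefSeq windows on the rat build GRCr8, running from 250 bases before to 50 bases after a start, were found by symbol for 28 of the 35 members (30 windows). Pmvk, Fdft1, Sqle, Stard4, Acaca, Fasn and Elovl6 had no entry. The deposited table named no build, so its values were joined to these windows by gene symbol. The 4 windows below belong to Hmgcs1 and Msmo1, the sterol members with the largest rises in CC4:2 stumps, to Fads1, which fell in VP4:2 against CC4:2, and to Mvd, a sterol enzyme gene that was called in no comparison. Capitals mark CCAAT or its reverse complement ATTGG, and each window reads 5′ to 3′ on the strand of the gene.
Hmgcs1, chr2:53382054-53382353, plus strand: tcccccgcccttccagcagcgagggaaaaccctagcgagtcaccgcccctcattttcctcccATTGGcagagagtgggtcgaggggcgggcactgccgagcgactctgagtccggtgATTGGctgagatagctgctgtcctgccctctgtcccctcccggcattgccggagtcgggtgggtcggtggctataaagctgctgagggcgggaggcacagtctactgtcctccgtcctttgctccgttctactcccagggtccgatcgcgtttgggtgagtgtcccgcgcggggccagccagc
Msmo1, chr16:29746863-29747162, plus strand: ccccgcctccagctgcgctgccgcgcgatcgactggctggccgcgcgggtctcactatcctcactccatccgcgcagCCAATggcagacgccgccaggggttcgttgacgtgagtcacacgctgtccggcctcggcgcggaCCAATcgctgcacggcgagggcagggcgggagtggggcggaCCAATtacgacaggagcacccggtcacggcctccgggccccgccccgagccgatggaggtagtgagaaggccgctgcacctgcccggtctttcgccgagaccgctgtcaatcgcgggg
Fads1, chr1:216252442-216252741, plus strand: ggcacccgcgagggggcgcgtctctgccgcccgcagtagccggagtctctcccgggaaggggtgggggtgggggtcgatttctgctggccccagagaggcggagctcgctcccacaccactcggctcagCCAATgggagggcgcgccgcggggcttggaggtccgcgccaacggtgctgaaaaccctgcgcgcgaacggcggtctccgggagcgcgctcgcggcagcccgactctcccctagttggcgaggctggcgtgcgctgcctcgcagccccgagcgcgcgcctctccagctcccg
Mvd, chr19:67414925-67415224, minus strand: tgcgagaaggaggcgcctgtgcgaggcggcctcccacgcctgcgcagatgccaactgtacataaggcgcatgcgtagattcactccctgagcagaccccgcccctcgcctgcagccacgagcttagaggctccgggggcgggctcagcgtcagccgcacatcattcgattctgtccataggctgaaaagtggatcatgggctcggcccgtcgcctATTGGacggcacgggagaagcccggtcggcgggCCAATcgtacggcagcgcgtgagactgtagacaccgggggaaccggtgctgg

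The Hmgcs1 window held 2 such boxes, the Msmo1 window 3, the Fads1 window 1 and the Mvd window 2. CCAAT, searched on both strands, was found in 20 of the 30 member windows (66.7%) and in 37.5% of all 33469 RefSeq windows of that length. It was in 14 of 18 sterol windows and 6 of 12 fatty acid windows. The GC box GGGCGG, also searched on both strands, was in 25 of 30 member windows (83.3%) and 33.1% of all windows. The set of all windows was not limited to genes tested here, whereas every member was tested. These shares thus do not compare like sets of genes. TCACNCCAC, a sterol response element form, was in 0 member windows and 1.12% of all windows, and the E-box form TCACGTGA was in 0 member windows and 0.777% of all. The CCAAT box was also counted by call. Of the 19 members with a window that rose in CC4:2 against Control, 12 held the box, and of the 9 not called 7 held it. Members without a window, Fasn and Fdft1 among them, are not in these counts. Whether the box goes with the response was not tested. A match is a description of the letters, and no match says only that those letters are not in this window.

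Levels are given as TMM-scaled CPM, the counts of a gene relative to the scaled total of its sample, always for replicates 1, 2 and 3 in that order. Differences are log2 fold changes ± standard error (SE) from edgeR's quasi-likelihood test over all 15712 genes, with 3 samples per group. A gene is said to rise or fall where its Benjamini-Hochberg adjusted p was under 0.05. Totals after rounding were 13763067 to 18632280 counts per sample. Replicates 1 and 2 of each group were read on a NovaSeq X Plus (8 samples) and replicate 3 on a DNBSEQ-T7 (4 samples), so platform was balanced over the groups. Control replicate 1 stood apart from the other controls in myelin markers, with a mean log2 CPM over 10 markers of 3.91 against 7.08 and 6.39. The counts of sterol and fatty acid members that rose in CC4:2 against Control were 15 and 11 without that sample, and those of myelin and adipocyte markers 10 of 10 and 9 of 10. Of all genes, 3559 of 15975 rose in that refit.

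**Figure D1:**
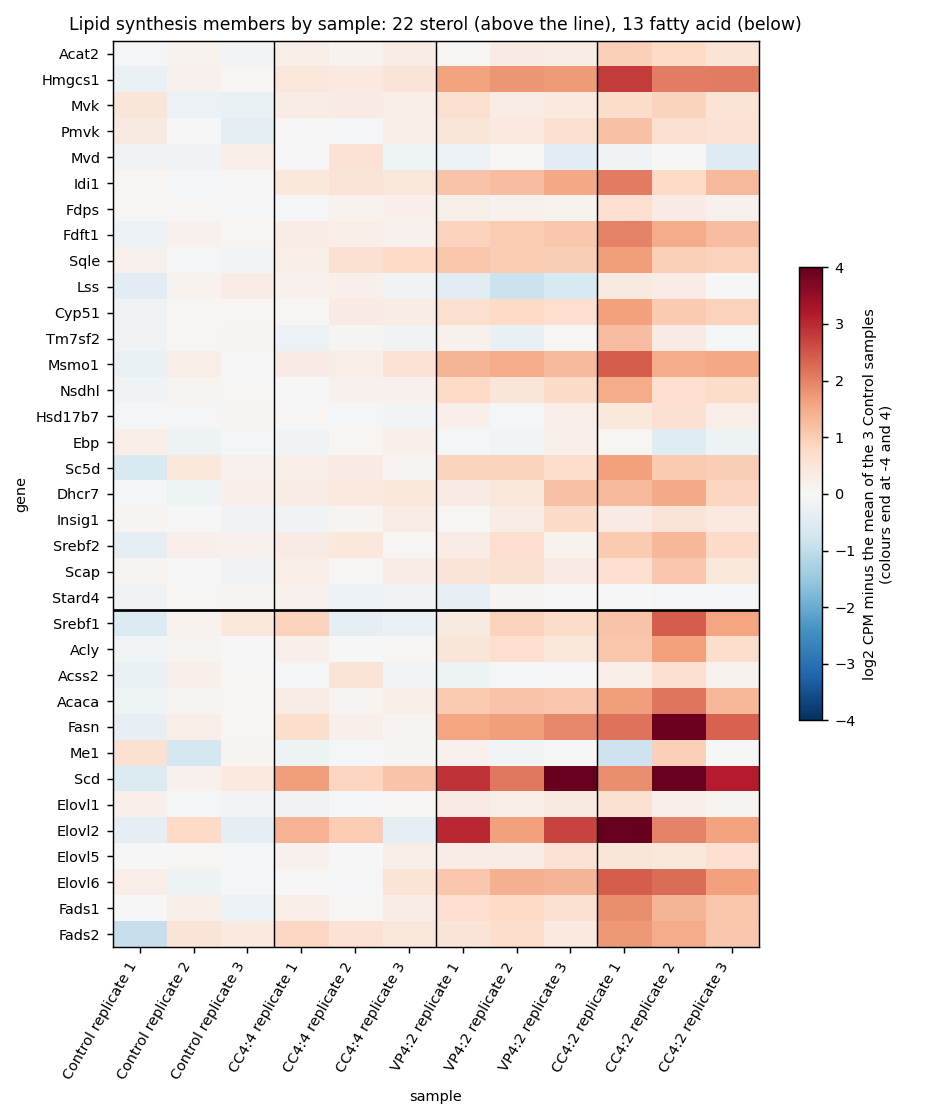
Each row is 1 of the 35 members and each column 1 of the 12 samples, and colour gives log2 CPM minus the mean of the 3 Control samples (sterol members above the line, fatty acid members below, colours end at -4 and 4). CC4:2 columns are the most red, VP4:2 columns lie between them and Control, and CC4:4 columns are close to Control.

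The first comparison asked what the 4:2 conduit changed. Both pathways were higher in CC4:2 stumps than in Control stumps. Of 22 sterol members 15 rose and 0 fell, and of 13 fatty acid members 10 rose and 0 fell, while 20.3% of all genes tested rose. The median log2 difference was 0.79 over the sterol members and 1.47 over the fatty acid members, against -0.05 over all genes. All 3 CC4:2 samples lay above all 3 controls for 17 sterol and 10 fatty acid members, as for 23.5% of all genes. In a bulk sample, more cells of a type and more RNA per cell cannot be told apart. Markers of several cell types moved with this result. All 10 myelin markers rose, with summed levels of 480 to 4821 CPM in Control and 14501 to 37913 CPM in CC4:2. All 10 adipocyte markers rose too, from summed levels of 248 to 329 CPM to 825 to 2975 CPM. Of 8 Schwann cell markers 7 rose, and of 7 fibroblast and perineurial markers 4 rose. Immune cell markers fell. They did so for 7 of 10 macrophage markers (4323 to 4374 CPM summed in Control, 1260 to 1521 in CC4:2), 6 of 6 neutrophil markers (313 to 754 and 20.4 to 40.4 CPM) and 8 of 8 T and B cell markers (182 to 638 and 11.1 to 31.8 CPM). No myelin, adipocyte, macrophage, neutrophil or T and B cell marker was at 0 in any sample, and the part of these cells in the result was not tested. The hepatocyte list, also a lipid-making type, summed to at most 7.89 CPM in any sample. Skeletal muscle markers varied widely within groups. In replicates 1, 2 and 3 they summed to 3.43, 604 and 6042 CPM in Control and to 896, 9344 and 160 CPM in CC4:2. The part of muscle in the result was not tested either.

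The early sterol enzymes, from acetyl-CoA to farnesyl diphosphate, rose in 6 of 7 cases. Hmgcs1 makes HMG-CoA, the precursor of mevalonate. Its level was 36.3, 48.8 and 46.0 CPM in Control, 59.6, 57.1 and 61.6 in CC4:4 stumps, 131, 147 and 142 in VP4:2, then 305, 178 and 182 in CC4:2. The 4 groups did not overlap for this gene, in that order from low to high. The difference between CC4:2 and Control was 2.34 ± 0.21 (adjusted p = 4.4e-05), a 5.07-fold rise and the largest of any sterol member. Idi1 interconverts the 2 isoprene units from which the chain is built. It stood at 12, 10.9 and 11.2 CPM in Control, 15.3, 16.3 and 15.7 in CC4:4 stumps, 25.2, 26.8 and 33.2 in VP4:2, then 48.7, 19.8 and 28.1 in CC4:2. The CC4:2 samples all lay above Control and spanned the range of VP4:2, and the rise was 1.50 ± 0.27 (adjusted p = 0.0015).

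The other early enzymes moved less. Acat2, which joins 2 acetyl-CoA units, was at 16.5, 18.6 and 15.8 CPM in Control, 19.7, 18.6 and 20.8 in CC4:4 stumps, 17.9, 21.2 and 20.6 in VP4:2, then 32.9, 29.5 and 24.6 in CC4:2. It rose by 0.77 ± 0.14 in CC4:2 (adjusted p = 0.0014), and no other group reached the lowest CC4:2 sample. Pmvk and Mvk, the kinases that phosphorylate mevalonate, rose by 0.80 ± 0.21 and 0.69 ± 0.20. Fdps, which makes farnesyl diphosphate, rose by 0.41 ± 0.13 (adjusted p = 0.029). The Fdps call was lost without CC4:2 replicate 1 (adjusted p = 0.11) or Control replicate 3 (0.070), and the Mvk call without CC4:2 replicate 2 (0.064), Control replicate 2 (0.055) or Control replicate 3 (0.062). Mvd, the decarboxylase between Pmvk and Idi1, was the exception at -0.21 ± 0.24 (adjusted p = 0.52), with 7.78 to 11.5 CPM in CC4:2 and 10.2 to 13.6 CPM in Control.

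Of the 11 enzymes from farnesyl diphosphate to cholesterol, 7 rose. Fdft1, squalene synthase, commits the pathway to sterols. Its level was 23.1, 30.8 and 28.3 CPM in Control, 33.4, 32.9 and 31.0 in CC4:4 stumps, 52.2, 54.8 and 57.6 in VP4:2, then 108, 77.3 and 64.2 in CC4:2. The groups again did not overlap, and the difference between CC4:2 and Control was 1.60 ± 0.18 (adjusted p = 1.4e-04). Sqle, squalene epoxidase, is the first oxygen-dependent step. It stood at 13.2, 11.1 and 10.7 CPM in Control, 13.7, 17.8 and 20.5 in CC4:4 stumps, 25.0, 23.7 and 23.3 in VP4:2, then 37.6, 22.7 and 22.2 in CC4:2. Control was lowest and CC4:2 replicate 1 highest, while the other CC4:2 samples lay just under the VP4:2 samples. The rise against Control was 1.23 ± 0.22 (adjusted p = 0.0014).

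Msmo1 removes a methyl group from the sterol ring. It was at 15.5, 22.1 and 18.4 CPM in Control, 23.4, 21.7 and 27.7 in CC4:4 stumps, 47.9, 51.9 and 45.8 in VP4:2, then 100, 51.6 and 53.7 in CC4:2. Its rise in CC4:2 was 1.87 ± 0.25 (adjusted p = 3.1e-04). The level in CC4:2 replicate 1 was the highest of all samples, and the other CC4:2 samples were close to VP4:2. Dhcr7 reduces 7-dehydrocholesterol to cholesterol. Its values were 7.54, 6.95 and 9.05 CPM in Control, 9.51, 10.2 and 10.4 in CC4:4 stumps, 9.87, 10.8 and 17.7 in VP4:2, then 19.2, 22.4 and 14.1 in CC4:2. CC4:2 lay above Control and CC4:4 in every sample (1.24 ± 0.25 against Control, adjusted p = 0.0025), and VP4:2 replicate 3 fell inside the CC4:2 range. The demethylase gene Cyp51 (1.23 ± 0.18), Sc5d (1.20 ± 0.25), which adds a double bond, and Nsdhl (1.02 ± 0.21), which acts in demethylation, also rose.

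Late steps that were not called lay among these. Lss, which closes the ring to lanosterol, was at 25.0, 38.4 and 42.9 CPM in Control, 39.0, 39.9 and 31.4 in CC4:4 stumps, 25.3, 19.2 and 22.8 in VP4:2, then 44.7, 42.6 and 34.4 in CC4:2. CC4:2 overlapped Control (0.20 ± 0.20, adjusted p = 0.46), although Lss acts directly between Sqle and Cyp51. Ebp, a sterol isomerase, gave -0.19 ± 0.19, Hsd17b7, a sterol ketone reductase, 0.45 ± 0.23, and Tm7sf2, a sterol reductase, 0.61 ± 0.33. In Tm7sf2 the CC4:2 samples ran from 2.82 to 7.2 CPM, and only replicate 1 was far from the Control range of 2.70 to 3.23.

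Among the sterol regulators, the factor gene Srebf2 and its escort gene Scap rose, while Insig1 and the sterol carrier gene Stard4 were not called. Srebf2 was at 44.5, 66.4 and 66.0 CPM in Control, 72.3, 77 and 60.2 in CC4:4 stumps, 70.9, 92.2 and 63.6 in VP4:2, then 121, 145 and 98.2 in CC4:2. All CC4:2 samples lay above all others, with a rise of 1.04 ± 0.21 over Control (adjusted p = 0.0027). Scap rose by 0.76 ± 0.16 (adjusted p = 0.0042). Insig1 encodes the retention protein that is itself a known SREBP target. It was at 75.1, 70.5 and 63.6 CPM in Control, 63.7, 75.1 and 84.9 in CC4:4 stumps, 72.6, 85.5 and 119.6 in VP4:2, then 87.2, 99.5 and 91.1 in CC4:2. CC4:2 did not overlap Control, yet the difference of 0.41 ± 0.18 did not pass (adjusted p = 0.085). Stard4 gave -0.05 ± 0.15, with 23.3 to 24.7 CPM in CC4:2.

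**Figure D2:**
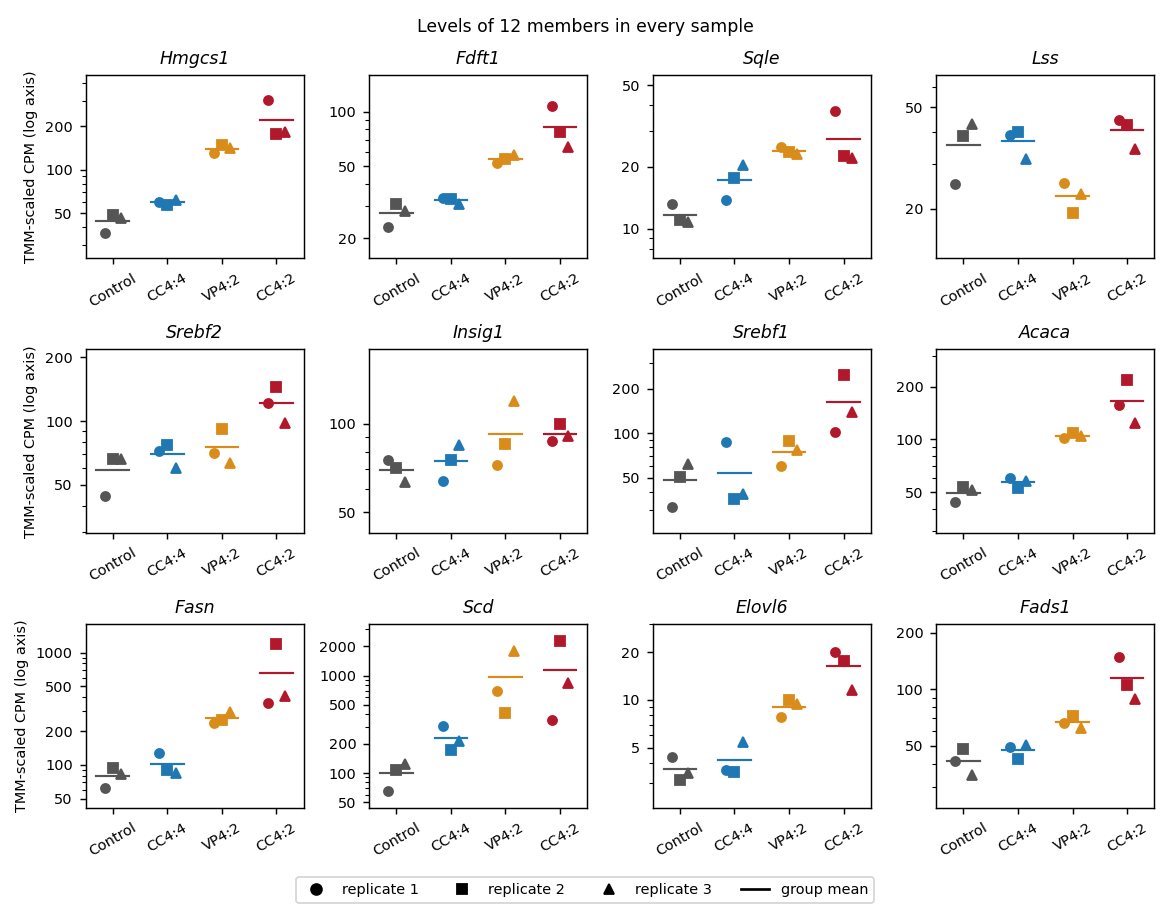
Points are TMM-scaled CPM on a log axis for 12 members in each of the 12 samples (circle, square and triangle for replicates 1, 2 and 3), and lines are group means. Hmgcs1 and Fdft1 step up from Control to CC4:4, VP4:2 and CC4:2 with no overlap, Insig1 shows little separation, and Lss is lowest in VP4:2.

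On the fatty acid side, the regulator gene Srebf1 stood at 31.6, 50.5 and 61.5 CPM in Control, 86.6, 35.8 and 38.7 in CC4:4 stumps, 59.6, 88.1 and 76.9 in VP4:2, then 102, 246 and 139 in CC4:2. Every CC4:2 sample lay above every other sample, and the rise over Control was 1.76 ± 0.41 (adjusted p = 0.0063). Carbon supply and synthesis genes rose in 3 of 5 cases. Acly splits citrate into cytosolic acetyl-CoA. It was at 93.6, 110 and 103 CPM in Control, 118, 103 and 105 in CC4:4 stumps, 143, 161 and 138 in VP4:2, then 221, 318 and 166 in CC4:2, a rise of 1.20 ± 0.21 (adjusted p = 0.0011). Acaca makes malonyl-CoA, the committed step. Its level was 43.7, 53.4 and 51.6 CPM in Control, 60.4, 53.1 and 57.8 in CC4:4 stumps, 102, 109 and 104 in VP4:2, then 157, 218 and 123 in CC4:2. VP4:2 and CC4:2 overlapped neither each other nor the remaining groups, and CC4:2 was higher than Control by 1.74 ± 0.18 (adjusted p = 1.0e-04).

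Fasn, fatty acid synthase, varied more. Its values were 62.2, 94.1 and 83.5 CPM in Control, 128, 90.2 and 84.8 in CC4:4 stumps, 235, 249 and 298 in VP4:2, then 359, 1198 and 408 in CC4:2. CC4:2 replicate 2 was the highest of all 12 samples, and the rise of 3.03 ± 0.43 (adjusted p = 4.3e-04) was 2.26 without it. Acss2, which activates acetate, and Me1, a source of NADPH, were not called (0.35 ± 0.21 and 0.11 ± 0.40). Me1 spread from 20.3 to 70.0 CPM within CC4:2 and from 22.3 to 55.4 CPM within Control.

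Of 7 elongase and desaturase genes, 6 rose. Scd encodes the stearoyl-CoA desaturase that makes monounsaturated fatty acids. It was at 65.6, 107 and 125 CPM in Control, 303, 174 and 213 in CC4:4 stumps, 704, 410 and 1809 in VP4:2, then 349, 2266 and 843 in CC4:2. Control was lowest in every sample, and CC4:2 and VP4:2 overlapped widely. The rise in CC4:2 was 3.54 ± 0.72 (adjusted p = 0.0030), and 2.59 without CC4:2 replicate 2. Reads of Scd could in part be shared with the near copy Scd2. The latter was at 529, 926 and 713 CPM in Control and 739, 601 and 666 in CC4:4 stumps. In VP4:2 it was at 1584, 1882 and 1356 CPM, and in CC4:2 at 3557, 1996 and 1756. Within CC4:2, Scd2 was highest in replicate 1 and Scd in replicate 2. Elovl6 extends palmitate to stearate. It stood at 4.39, 3.12 and 3.47 CPM in Control, 3.64, 3.52 and 5.40 in CC4:4 stumps, 7.84, 9.99 and 9.41 in VP4:2, then 20.1, 17.6 and 11.6 in CC4:2. Only CC4:4 and Control overlapped, and the rise in CC4:2 was 2.16 ± 0.26 (adjusted p = 2.0e-04).

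Fads1 and Fads2 are the desaturases that make polyunsaturated fatty acids. Fads1 was at 41.4, 47.9 and 34.9 CPM in Control, 49.4, 42.2 and 50.7 in CC4:4 stumps, 65.7, 71.9 and 62.4 in VP4:2, then 149, 105 and 89.2 in CC4:2, a rise of 1.47 ± 0.19 (adjusted p = 2.6e-04). Fads2 was at 8.27, 22.4 and 20.5 CPM in Control, 27.6, 23.2 and 21.6 in CC4:4 stumps, 22.5, 25.4 and 20.6 in VP4:2, then 52.6, 43.8 and 33.4 in CC4:2. All CC4:2 samples lay above all others (1.35 ± 0.31, adjusted p = 0.0061), and Control replicate 1 was the lowest sample. Elovl2, which lengthens polyunsaturated chains, was scarce. Its counts were 0, 2 and 0 in Control, 5, 3 and 0 in CC4:4 stumps, 21, 7 and 17 in VP4:2, then 139, 9 and 7 in CC4:2. The ratio of CC4:2 to Control was 59.7, with a 95% interval of 16.3 to 497 that covers counting error only. The fitted rise of 5.65 ± 1.57 (adjusted p = 0.014) rested mainly on CC4:2 replicate 1 and was 3.01 without it (adjusted p = 0.082). The call was also lost without Control replicate 3 (adjusted p = 0.051). Elovl5, a widely expressed elongase, rose by 0.55 ± 0.13, and Elovl1, which makes very long saturated chains, was not called (0.31 ± 0.14, adjusted p = 0.10).

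Of the 25 members that rose, 22 (13 sterol and 9 fatty acid) did so whichever single sample was left out of the comparison. On the 2 NovaSeq samples per group alone, 12 sterol and 8 fatty acid members rose, as did 1518 of 15800 genes. In the 1 DNBSEQ sample per group, 17 of 22 sterol and 12 of 13 fatty acid members were higher in CC4:2. The same count was not made over all genes, so these directions have no background share.

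The members did not vary in step among the CC4:2 samples. Sterol members were highest in replicate 1 for 15 of 22 genes, in replicate 2 for 7 and in replicate 3 for 0. Fatty acid members were highest in replicate 2 for 7 of 13, in replicate 1 for 5 and in replicate 3 for 1. The mean log2 CPM of the sterol members was 5.32, 4.99 and 4.81 in CC4:2 replicates 1, 2 and 3, and that of the 10 myelin markers 9.93, 9.23 and 8.49. For the fatty acid members it was 6.36, 6.66 and 6.01, and for the 10 adipocyte markers 5.24, 7.43 and 7.09. Sterol members and myelin markers had the same order over the CC4:2 samples and over the Control samples, but not over those of VP4:2 or CC4:4. In Control the sterol means were 4.14, 4.25 and 4.23, close together, and the myelin means 3.91, 7.08 and 6.39. In VP4:2 the sterol means were 4.68, 4.69 and 4.76 and the myelin means 8.78, 9.06 and 8.36. In CC4:4 the sterol means were 4.35, 4.43 and 4.42 and the myelin means 6.59, 6.31 and 6.21. Within CC4:2, fatty acid members had replicate 2 on top, as did the adipocyte markers, but differed from them in the lowest sample. In CC4:4, replicate 1 had the highest adipocyte marker mean (6.10 against 3.43 and 4.13) and the highest Srebf1, Fasn and Scd levels given above. Of the 13 fatty acid members, 7 were highest in CC4:4 replicate 1, 1 in replicate 2 and 5 in replicate 3. Whether fat cell content set these levels was not tested. The ratio of the highest to the lowest CC4:2 sample had a median of 1.54 over sterol members and 1.77 over fatty acid members. In VP4:2 these medians were 1.24 and 1.23, and in CC4:4 1.21 and 1.26.

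**Figure D3:**
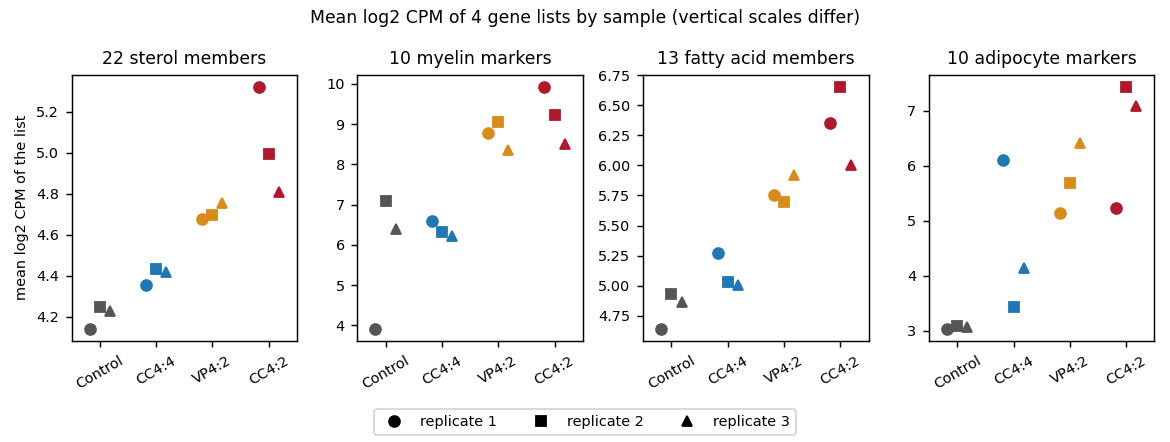
Points give the mean log2 CPM of the 22 sterol members, 10 myelin markers, 13 fatty acid members and 10 adipocyte markers in each of the 12 samples, with a separate vertical scale per panel. Sterol members and myelin markers are both highest in replicate 1 and lowest in replicate 3 of CC4:2, and CC4:4 replicate 1 is high in adipocyte markers.

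CC4:4 asked the same of the other conduit form. No member was called between CC4:4 and Control, as 0% of all genes rose and 0 of 15712 genes were called by edgeR's quasi-likelihood test. At an unadjusted p under 0.05 there were 830 genes in all, 1 sterol member and 0 fatty acid members. DESeq2 called 10 genes and 0 members. Without Control replicate 1, 295 genes were called in all and still 0 members. The medians were 0.19 for the sterol and 0.19 for the fatty acid members, against -0.01 over all genes. Of 22 sterol members, 19 were above 0. All 3 CC4:4 samples lay above all 3 controls for 6 sterol members (Acat2, Hmgcs1, Idi1, Fdft1, Sqle and Dhcr7) and for 1 fatty acid member (Scd), as for 3.12% of all genes. The largest sterol difference was 0.57 ± 0.22 in Sqle (adjusted p = 0.93), and that of Hmgcs1 was 0.44 ± 0.20. Scd gave 1.21 ± 0.66 (adjusted p = 0.94). Myelin markers were not called either (0 of 10, 2814 to 3526 CPM summed), nor were adipocyte markers (0 of 10, 229 to 1321 CPM).

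Setting the 2 conduit forms against each other tested their difference directly. CC4:2 was higher than CC4:4 for 13 of 22 sterol and 9 of 13 fatty acid members and lower for 0, and 18.5% of all genes rose. Groups did not overlap, with CC4:2 on top, for 16 sterol and 11 fatty acid members, as for 25.1% of all genes. Medians were 0.68 and 1.27, against 0.01 over all genes. The leading sterol members were Hmgcs1 (1.90 ± 0.21, adjusted p = 1.6e-04), Msmo1 (1.50 ± 0.24, adjusted p = 0.0011) and Fdft1 (1.36 ± 0.18, adjusted p = 4.2e-04). Fasn was higher by 2.69 ± 0.43 (adjusted p = 9.7e-04), and by 1.92 without CC4:2 replicate 2. Scd was higher by 2.33 ± 0.68 (adjusted p = 0.020), a call lost without CC4:2 replicate 2 (1.38, adjusted p = 0.10), CC4:4 replicate 2 (0.081) or CC4:4 replicate 3 (0.065). Elovl2, at 155 against 8 counts, was higher by 3.96 ± 1.31 (adjusted p = 0.034), and by 1.33 without CC4:2 replicate 1 (adjusted p = 0.35). Its call was also lost without any 1 of the CC4:4 samples, at adjusted p from 0.063 to 0.096.

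Some members called against Control were not called here. Mvk (0.44 ± 0.20, adjusted p = 0.11), Fdps (0.30 ± 0.13, adjusted p = 0.092) and Fads2 (0.84 ± 0.31, adjusted p = 0.051) did not pass. Srebf2 (0.80 ± 0.21), Srebf1 (1.60 ± 0.41), Scap (0.56 ± 0.16), Acaca (1.54 ± 0.18), Acly (1.11 ± 0.20), Elovl6 (1.97 ± 0.26), Idi1 (1.03 ± 0.27), Sqle (0.67 ± 0.22) and Dhcr7 (0.89 ± 0.24) did. The Sqle call was lost without CC4:2 replicate 1 (0.38, adjusted p = 0.13), CC4:4 replicate 1 (0.094) or CC4:4 replicate 2 (0.065). The Scap call was lost without CC4:2 replicate 2 (adjusted p = 0.070) or CC4:4 replicate 2 (0.081). Dhcr7 lost its call without CC4:2 replicate 2 (adjusted p = 0.054), Srebf2 without CC4:4 replicate 3 (0.053) and Srebf1 without CC4:4 replicate 2 (0.055). Idi1 was still called without CC4:2 replicate 1, at 0.61. In all, 8 sterol and 5 fatty acid members kept their call whichever single sample was left out. Leaving out 1 sample gave 10 to 15 sterol and 5 to 10 fatty acid calls, the fewest in both without CC4:4 replicate 2. On NovaSeq samples alone 9 sterol and 5 fatty acid members rose, as did 1427 of 15800 genes. All 10 myelin markers and 3 of 10 adipocyte markers rose in this comparison, and 6 of 10 macrophage, 6 of 6 neutrophil and 8 of 8 T and B cell markers fell, with medians of -1.14, -5.39 and -4.63. Their part was not tested.

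Verteporfin in the 4:2 conduit was the next question. Between VP4:2 and CC4:2, 2 sterol members (Lss and Acat2) and 1 fatty acid member (Fads1) fell and 0 rose, and 0.999% of all genes fell. Nearly all members pointed down without passing. Of 35 members, all but Ebp (0.20 ± 0.18) and Elovl1 (0.01 ± 0.14) had a log2 difference below 0. Medians were -0.33 for the sterol and -0.67 for the fatty acid members, against -0.03 over all genes. An unadjusted p under 0.05 was found for 7 members of each pathway, and for 3475 of all 15712 genes tested. Without CC4:2 replicate 1 the sterol median was -0.16, with 5 of 22 sterol and 2 of 13 fatty acid members above 0. Without CC4:2 replicate 2 the fatty acid median was -0.42. All VP4:2 samples lay below all CC4:2 samples for 8 sterol and 8 fatty acid members, as for 14.6% of all genes.

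Lss fell by 0.85 ± 0.20 on the log2 scale (adjusted p = 0.034), and in the sample values given above VP4:2 lay wholly below CC4:2 and CC4:4. Fads1 fell by 0.78 ± 0.19 (adjusted p = 0.034), to a level still above Control. Acat2 fell by 0.54 ± 0.14 (adjusted p = 0.040), to levels that overlap CC4:4. The replicate numbers were taken to pair the samples of these 2 groups, from correlations between samples only. The number was added as a block to the fit of all 12 samples, so Control and CC4:4 also shaped its terms. It is thus not a paired test of these 2 groups alone. With this block the adjusted p was 0.069 for Lss, 0.074 for Acat2 and 0.046 for Fads1. That left 0 sterol and 1 fatty acid call. All 3 calls were kept without CC4:2 replicate 3 and lost without any other single sample, at adjusted p up to 0.17. On NovaSeq samples alone edgeR called 0 members, with medians of -0.48 and -0.88. There 7 sterol and 6 fatty acid members had an unadjusted p under 0.05, as did 1985 of 15800 genes. In the 1 DNBSEQ sample per group, 12 of 22 sterol and 9 of 13 fatty acid members were lower in VP4:2, with no count made over all genes. DESeq2 called 5 sterol and 7 fatty acid members, all lower, among 542 of 15712 genes called lower.

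Members that did not pass included several with sizeable differences. Hmgcs1 gave -0.66 ± 0.20 (adjusted p = 0.082), Fdft1 -0.60 ± 0.18 (0.075), Srebf2 -0.68 ± 0.21 (0.081) and Dhcr7 -0.54 ± 0.24 (0.22). On the fatty acid side, Acaca gave -0.66 ± 0.18 (adjusted p = 0.055), Elovl6 -0.86 ± 0.25 (0.073), Acly -0.67 ± 0.20 (0.080), Fads2 -0.92 ± 0.31 (0.11) and Srebf1 -1.12 ± 0.41 (0.14). Fasn gave -1.33 ± 0.41 (adjusted p = 0.086), and -0.55 without CC4:2 replicate 2. Other members were close to 0, among them Insig1 (-0.00 ± 0.18), Idi1 (-0.18 ± 0.26), Sqle (-0.20 ± 0.22) and Scd (-0.24 ± 0.65). Scd and Elovl2 (-1.74 ± 1.10) turned sign when CC4:2 replicate 2 and CC4:2 replicate 1 were left out, at 0.71 and 0.89. Myelin and adipocyte markers were not called (0 of 10 each, medians -0.58 and -0.87), with summed levels in VP4:2 of 13149 to 19771 and 781 to 1791 CPM. Of 10 macrophage markers 6 rose, from 1260 to 1521 CPM summed in CC4:2 to 4289 to 5356 CPM in VP4:2. Of 8 T and B cell markers 2 rose, and of 6 neutrophil markers 1 rose. The part of these cells in the result was not tested.

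**Figure D4:**
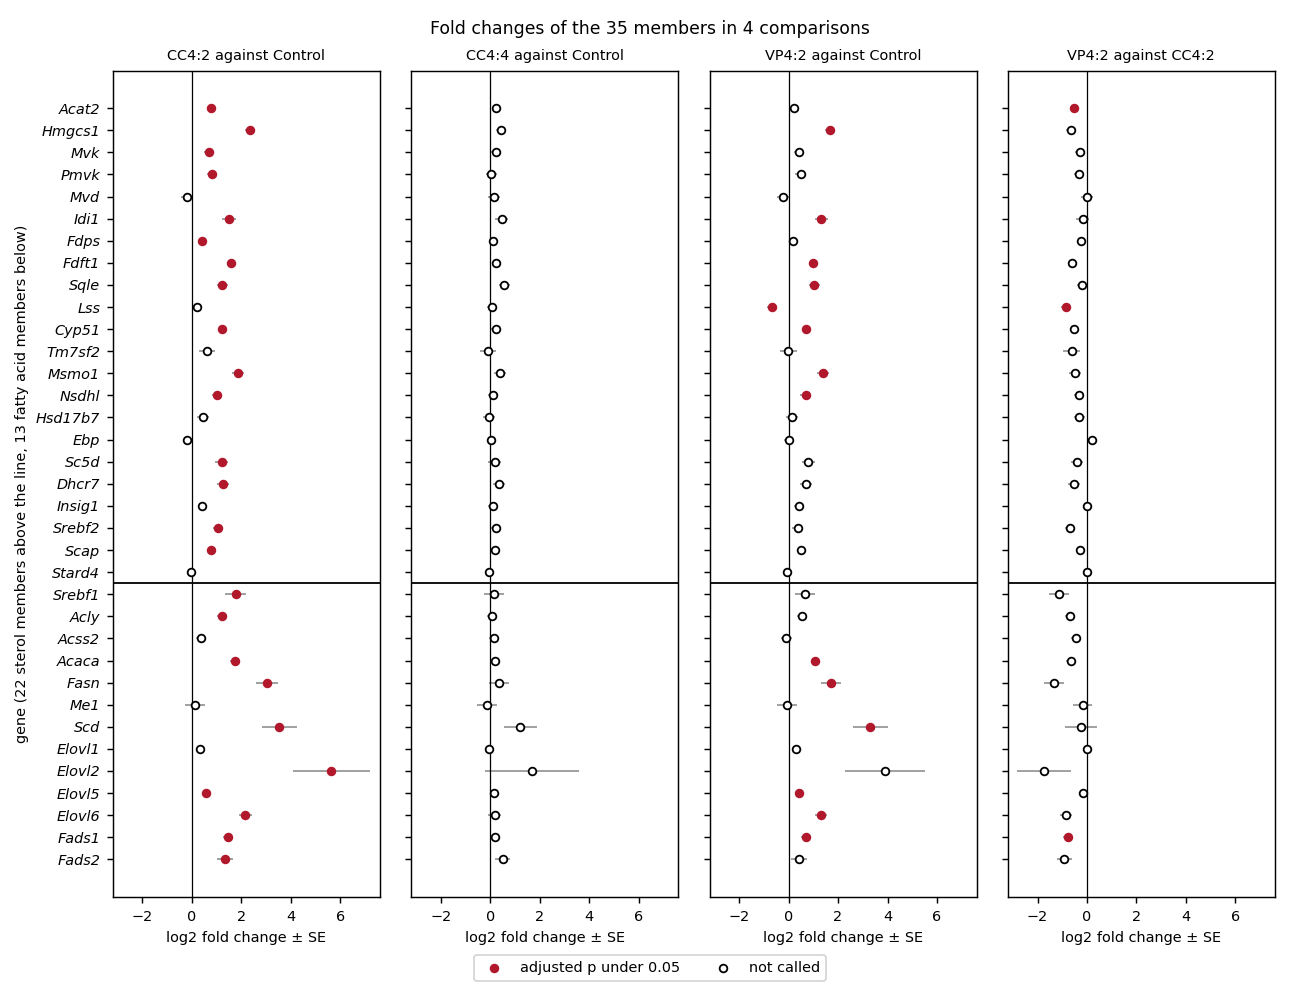
Each point is the log2 fold change of 1 of the 35 members in 4 comparisons, with its SE as a bar, and filled points had an adjusted p under 0.05. Filled points number 25 in CC4:2 against Control, 0 in CC4:4 against Control, 14 in VP4:2 against Control and 3 in VP4:2 against CC4:2.

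VP4:2 stumps also differed from Control, in a comparison that shares samples with those above. Of 22 sterol members 7 rose and 1 fell, and of 13 fatty acid members 6 rose and 0 fell, while 9.3% of all genes rose and 9.57% fell. Medians were 0.44 and 0.65, against -0.04 over all genes. The samples did not overlap, with VP4:2 on top, for 12 sterol and 9 fatty acid members, as for 19.8% of all genes. The leading sterol members were Hmgcs1 (1.68 ± 0.21, adjusted p = 0.0018), Msmo1 (1.38 ± 0.25, adjusted p = 0.0067) and Idi1 (1.32 ± 0.27, adjusted p = 0.010). The others that rose were Sqle (1.04 ± 0.22), Fdft1 (1.00 ± 0.18), Cyp51 (0.71 ± 0.18) and Nsdhl (0.68 ± 0.21). Scd led the fatty acid members at 3.30 ± 0.71 (adjusted p = 0.012), or 2.49 without VP4:2 replicate 3. Fasn followed at 1.71 ± 0.41 (adjusted p = 0.019), then Elovl6 (1.30 ± 0.26, adjusted p = 0.0093), Acaca (1.08 ± 0.18), Fads1 (0.69 ± 0.19) and Elovl5 (0.40 ± 0.13).

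Lss was the 1 member that moved against its pathway, at -0.66 ± 0.20 (adjusted p = 0.046). VP4:2 and Control overlapped for Lss, since Control replicate 1 stood at 25.0 CPM beside 25.3 CPM in VP4:2 replicate 1. The call was kept without Control replicate 1 (adjusted p = 0.0067) and lost without any other single sample (0.077 to 0.19). Neither regulator gene passed, with 0.36 ± 0.21 for Srebf2 (adjusted p = 0.25) and 0.65 ± 0.40 for Srebf1 (adjusted p = 0.28), and Dhcr7 (0.71 ± 0.24), Acly (0.53 ± 0.20), Fads2 (0.42 ± 0.31) and Elovl2 (3.90 ± 1.63) did not either.

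Of these 14 calls, 8 (5 sterol and 3 fatty acid) were kept whichever single sample was left out. Those 8 were Hmgcs1, Idi1, Fdft1, Sqle, Msmo1, Acaca, Scd and Elovl6. On NovaSeq samples alone edgeR called 0 members, among 19 genes in all, while the medians were 0.41 and 0.66. There 10 sterol and 6 fatty acid members had an unadjusted p under 0.05, as did 3128 of 15800 genes. In the 1 DNBSEQ sample per group, 17 of 22 sterol and 11 of 13 fatty acid members were higher in VP4:2, with no count made over all genes. Of the 10 markers each, 9 myelin and 6 adipocyte markers rose. Of the immune markers, 8 of 8 T and B cell markers (median -2.36), 5 of 6 neutrophil markers (median -4.79) and 1 of 10 macrophage markers fell. The part of these cells was not tested.

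Genes next to these pathways were read from 3 further lists, also chosen with earlier results of these data known. In CC4:2 against Control, 20.3% of all genes tested rose. Of 13 tested genes of fatty acid handling and glyceride synthesis 12 rose, with a median of 1.44. They included Gpam, the first enzyme of glycerolipid synthesis (1.44 ± 0.16), Slc25a1, the mitochondrial citrate carrier (1.33 ± 0.19), and Thrsp, a lipogenic factor (4.32 ± 0.74). Of 8 genes for myelin sphingolipids and galactolipids 6 rose, among them Fa2h (3.20 ± 0.73), Gal3st1 (3.10 ± 0.69) and Ugt8 (3.10 ± 0.75), which make hydroxylated, sulfated and galactosylated lipids. Of 5 other sterol genes, Mbtps1, a protease that cleaves SREBPs, rose by 0.54 ± 0.14. Soat1, which esterifies cholesterol for storage, fell by 0.99 ± 0.17, from 149.6 ± 6.41 to 75.2 ± 21.7 CPM (SD, n = 3), and Lbr, a nuclear envelope sterol reductase, fell by 0.68 ± 0.19. Of all 15712 genes, 3649 fell in this comparison. In VP4:2 against CC4:2, 0 of 13, 0 of 8 and 1 of 5 genes of these lists changed, the 1 being Soat1, which rose by 0.74 ± 0.17 (adjusted p = 0.031). Of all 15712 genes, 822 rose there and 157 fell. Soat1 fell and rose beside the macrophage markers, of which 7 of 10 fell in CC4:2 against Control and 6 of 10 rose in VP4:2 against CC4:2, and their part in the Soat1 result was not tested. In VP4:2 against Control 6 of 13, 3 of 8 and 0 of 5 rose, beside 9.3% of all genes. In CC4:4 against Control 0 genes of any of the 3 lists were called, as were 0 of all 15712 genes. In CC4:2 against CC4:4, 11 of 13 and 4 of 8 rose, and of the 5 other sterol genes 1 rose and 2 fell. Of all 15712 genes, 18.5% rose there and 3251 fell.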

How the data were processed

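Expected counts per gene, as the authors deposited them, came in 12 identical tables, of which 1 was read. They need not be whole (9.44% to 11.1% of the values in a sample were not) and were rounded before testing. Libraries were stranded and made from poly(A) RNA, per the labels' protocols. Per the submitters' processing notes, HISAT2, StringTie, RSEM and DESeq2 were used. For these tools no role or version was stated, and neither a build nor an annotation is given in the sources used here.

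The test was the quasi-likelihood F test of edgeR 4.0.16 (R 4.3.3, limma 3.58.1) with TMM scaling, filterByExpr by group and 1 fit of all 12 samples with a term per group (8 residual degrees of freedom). P-values were Benjamini-Hochberg adjusted over the 15712 genes tested, and calls were made under 0.05. An SE was worked back from F, as the log2 fold change over its square root. Means over gene lists used log2 CPM with a prior count of 2. Replicates of a group differed by more than sampling noise (chi-square per degree of freedom 47.3 to 318). The test was checked on simulated counts with 100 genes changed 2-fold and 100 changed 4-fold in each comparison. It recovered 15 to 22 of the 2-fold and 61 to 79 of the 4-fold changes. Of its calls, 1.94% to 6.80% were false. So few changed genes are unlike CC4:2 against Control, where 6835 were called, and the rates there may differ. A gene that was not called may thus still differ.

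The members and lists were chosen with earlier results of these data known. All 35 members are named. Values in every sample and full statistics were set for 15 members, for the 3 called members of each pathway with the largest change per comparison and for called members that moved against their pathway. From other pathway lists, at most 3 called genes of smallest p were named, apart from Scd2, given as the near copy of Scd.

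Deviations from the group means in same-numbered samples of VP4:2 and CC4:2 had correlations across genes of 0.119, 0.277 and 0.433. For replicates 2 and 3, but not replicate 1, the same number was the best match. The number was therefore taken to pair these groups, although replicate 3 was also the DNBSEQ sample of each group. In the other comparisons it was not so taken, at correlations of -0.402 to 0.160. The same number was still the best match for replicate 3 in CC4:2 against CC4:4 and replicate 1 in VP4:2 against Control. The alternatives were DESeq2 1.42.0, RLE scaling, no filter, platform as a term, NovaSeq samples alone, only the 6 samples compared, the replicate number as a block, and each sample left out in turn. Some named genes share near-identical copies, and their values are uncertain to that extent.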

Additional observations from a re-analysis of the deposited data

How the results depend on the processing

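Counts of called genes and members moved most for the verteporfin comparison and for refits on fewer samples. In CC4:2 against Control, 3220 genes were called on NovaSeq samples only and 4363 on only the 6 samples compared (6835 as reported), and the member counts stayed within 1.5 times. In CC4:4 against Control, DESeq2 called 10 genes, and leaving out 1 sample gave 0 to 295 (0 as reported), with 0 members throughout. In CC4:2 against CC4:4, NovaSeq samples only gave 3253 genes and 5 fatty acid members (6156 and 9 as reported), and leaving out 1 sample gave 5 to 10 fatty acid members. In VP4:2 against CC4:2, 979 genes were called, 1861 by DESeq2, 202 on NovaSeq samples only and 466 to 746 with 1 sample left out. The 2 sterol members there became 5 with DESeq2, 1 with no filter on low counts, 1 on only the 6 samples compared, 1 with platform as a term, 0 on NovaSeq samples only, 0 with the replicate block and 0 to 3 with 1 sample left out. The 1 fatty acid member became 7 with DESeq2, 0 on NovaSeq samples only and 0 to 4 with 1 sample left out. In VP4:2 against Control, 2964 genes were called, 19 on NovaSeq samples only, 1869 on only the 6 samples compared and 1166 to 4294 with 1 sample left out. Its 8 sterol and 6 fatty acid calls became 0 and 0 on NovaSeq samples only, and 5 to 9 and 3 to 6 with 1 sample left out. NovaSeq samples only and single samples left out mean fewer samples per fit, and the cause of the other changes was not tested.

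With the replicate block, 6334, 5705, 853 and 2505 genes were called in CC4:2 against Control, CC4:2 against CC4:4, VP4:2 against CC4:2 and VP4:2 against Control. The block kept 25 of 25 member calls in CC4:2 against Control and 19 of 22 in CC4:2 against CC4:4. It kept 11 of 14 in VP4:2 against Control. In these comparisons the numbers were not taken to pair the samples. Of 2271 refitted member differences, 77 turned sign, 0 of them among members called as reported. Of 830 refits of called members, 708 were also called, and of 1441 refits of members not called, 32 were called. Depth limits Elovl2, with 2 counts over the Control group.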
